A study of Mus musculus with 22 samples.

Results

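The Slc25 genes encode the mitochondrial carrier family, and their messenger RNA was described here in the kidneys of young mice, old mice and old mice fed nicotinamide, a form of vitamin B3 from which cells make NAD. Members were all entries of the count table whose mouse symbol is Slc25a followed by a number, with pseudogenes left out. There were 47 such genes among 55487 gene entries. The 22 animals were male wild-type mice of the C57BL/6JRj strain, 1 library per kidney sample. The young group (n = 6) was 4 months of age and the old group (n = 8) 21 months, both without supplement. The nicotinamide group (n = 8) was also labelled old (21 months) and received a daily dose of 200 mg per kg of body weight, or 1.6 g per kg of food, over 14 weeks. No group carries a genetic change. The samples were small pieces of whole kidney, so every value is a mean over all cell types in the piece. The labels name animals, and each library was taken as 1 animal.

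Slc25 carriers sit mostly in the inner mitochondrial membrane, which lets little pass without them. They exchange ADP for ATP, bring in phosphate, and move carboxylates, amino acids, acylcarnitines, cofactors and iron between cytosol and matrix. In the kidney the proximal tubule and the thick ascending limb hold many mitochondria, and their transport of salt and solutes depends on ATP made there. NAD made outside the matrix can enter it through Slc25a51, which makes that gene of interest in a study of a NAD precursor.

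Libraries held 3351065 to 8319865 gene counts, with young replicate 6 the lowest. Levels are given as CPM, the share of a library's counts on a common scale, with a normalization factor for each library. Because the libraries read 3′ ends, a transcript gives about 1 fragment whatever its length, and CPM was not divided by length. The defining kidney markers Lrp2, Slc34a1, Umod, Slc12a1, Slc12a3, Aqp2 and Nphs1 had at least 16 counts in every library. Young replicate 6, old replicate 7 and nicotinamide replicates 1 and 7 had the lowest depth or stood apart in earlier results of these data, and values without these 4 kidneys are given where they change a call.

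Of the 47 members, 40 passed a filter on low counts. The 7 others were at or near 0. Slc25a54 had 0 counts in all 22 libraries, and Slc25a31, the ADP/ATP carrier of the male germ line, had 7 counts in all, from 2 libraries. Slc25a2 (an ornithine carrier) had 18 counts, Slc25a18 (a glutamate carrier) 8, Slc25a41 (an ATP-Mg/phosphate carrier) 6 and Slc25a43 13. Slc25a47 was the least rare of them, with 99 counts spread over 17 libraries and at most 15 in any.

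Among the 40, levels spanned from a mean of 2.62 CPM for Slc25a29 to 606.7 CPM for Slc25a39. Slc25a39, a glutathione carrier, and Slc25a3, the phosphate carrier that supplies ATP synthase, were the highest, and their ranges overlapped in the old group (467 to 619.9 CPM and 476 to 601 CPM). They were followed by the NAD carrier Slc25a51 (264 CPM over all kidneys), the ADP/ATP carrier Slc25a4 (209.7 CPM) and Slc25a30 (195 CPM), also called kidney mitochondrial carrier protein 1. The 5 highest members made up 52.0% to 56.1% of the family's summed CPM in each library. That sum was 3498 to 4002 CPM in young (median 3836), 2937 to 3580 in old (median 3363) and 2831 to 3656 with nicotinamide (median 3332). At the other end, 7 members lay under 10 CPM. The spread between animals of a group was modest: the median coefficient of variation over the 40 members was 14.8% for the young, 14.5% for the old and 16.4% for the nicotinamide group.

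**Figure D1:**
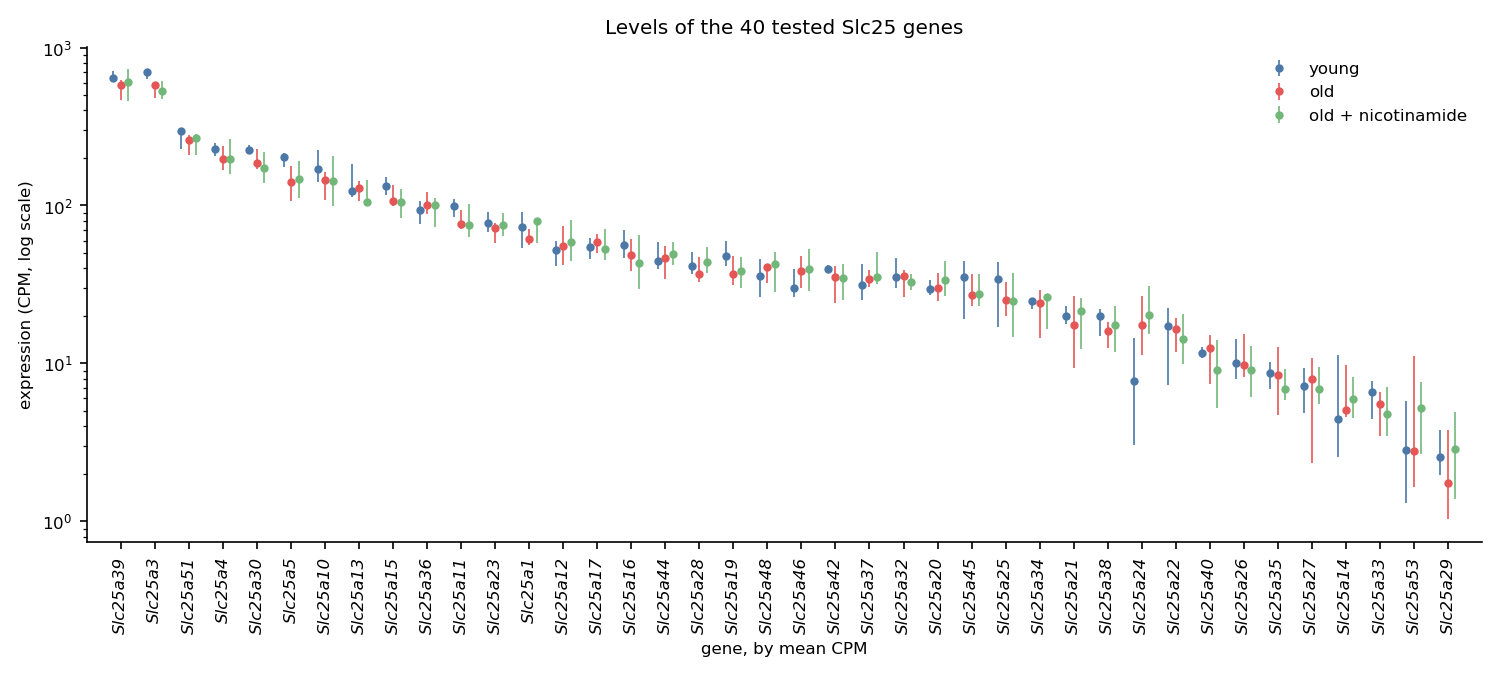
Expression in CPM (log axis) of the 40 tested Slc25 genes, ordered by mean; points are group medians and lines run from the lowest to the highest kidney of young (n = 6), old (n = 8) and nicotinamide-treated old mice (n = 8). Slc25a39 and Slc25a3 stand above the rest, and at Slc25a24 the young range (3.05 to 14.4 CPM) lies below that of the nicotinamide group (15.3 to 30.75) and overlaps that of the old group (11.3 to 26.6).

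Old against young kidneys shows how the carriers' messenger RNA differs with age. Slc25a5 (ADP/ATP) and Slc25a3 (phosphate) fell, by 1.43-fold and 1.23-fold, and Slc25a24, a calcium-regulated ATP-Mg/phosphate carrier, rose 2.24-fold. Thus 3 of 40 tested members passed an adjusted p of 0.05 (7.5%), against 7.04% of all 14683 genes tested: the members' share was close to the background. By direction, 2 members fell (3.15% of all genes did) and 1 rose (3.9% of all genes did). The 37 others did not pass.

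Slc25a5 encodes ADP/ATP carrier 2, a form found in many tissues. Its level was 176 to 215 CPM in young kidneys (median 202), 107 to 177 in old (median 141) and 112 to 192 with nicotinamide (median 148). All old kidneys lay below the young median, and only old replicate 3 (177 CPM) reached the lowest young kidney, replicate 5. The log2 fold change of old against young was −0.52 ± 0.10 (SE, adjusted p = 0.000791). In bulk tissue, fewer cells of a type and less RNA per cell cannot be told apart.

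Slc25a3 carries phosphate into the matrix, the substrate that ATP synthase joins to ADP. Its level was 628 to 718 CPM in young kidneys (median 702), 476 to 601 in old (median 576) and 469 to 610.3 with nicotinamide (median 528). No old kidney reached the lowest young one, so the groups did not overlap. The log2 fold change was −0.29 ± 0.07 (SE, adjusted p = 0.0117), or 1.23-fold lower.

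Slc25a24 exchanges ATP-Mg for phosphate and adjusts the nucleotide pool of the matrix. It was low, with 15 to 86 counts per young library. The level was 3.05 to 14.4 CPM in young (median 7.78), 11.3 to 26.6 in old (median 17.4) and 15.3 to 30.75 with nicotinamide (median 20.3). All 8 old kidneys were above the young median, while old replicate 3 (11.3 CPM) lay under young replicate 5 (14.4 CPM). The log2 fold change was 1.17 ± 0.24 (SE, adjusted p = 0.00212). Its calcium-regulated relatives did not pass: Slc25a23 was at −0.15 ± 0.09 and Slc25a25 at −0.33 ± 0.18 (adjusted p = 0.386 and 0.315).

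**Figure D2:**
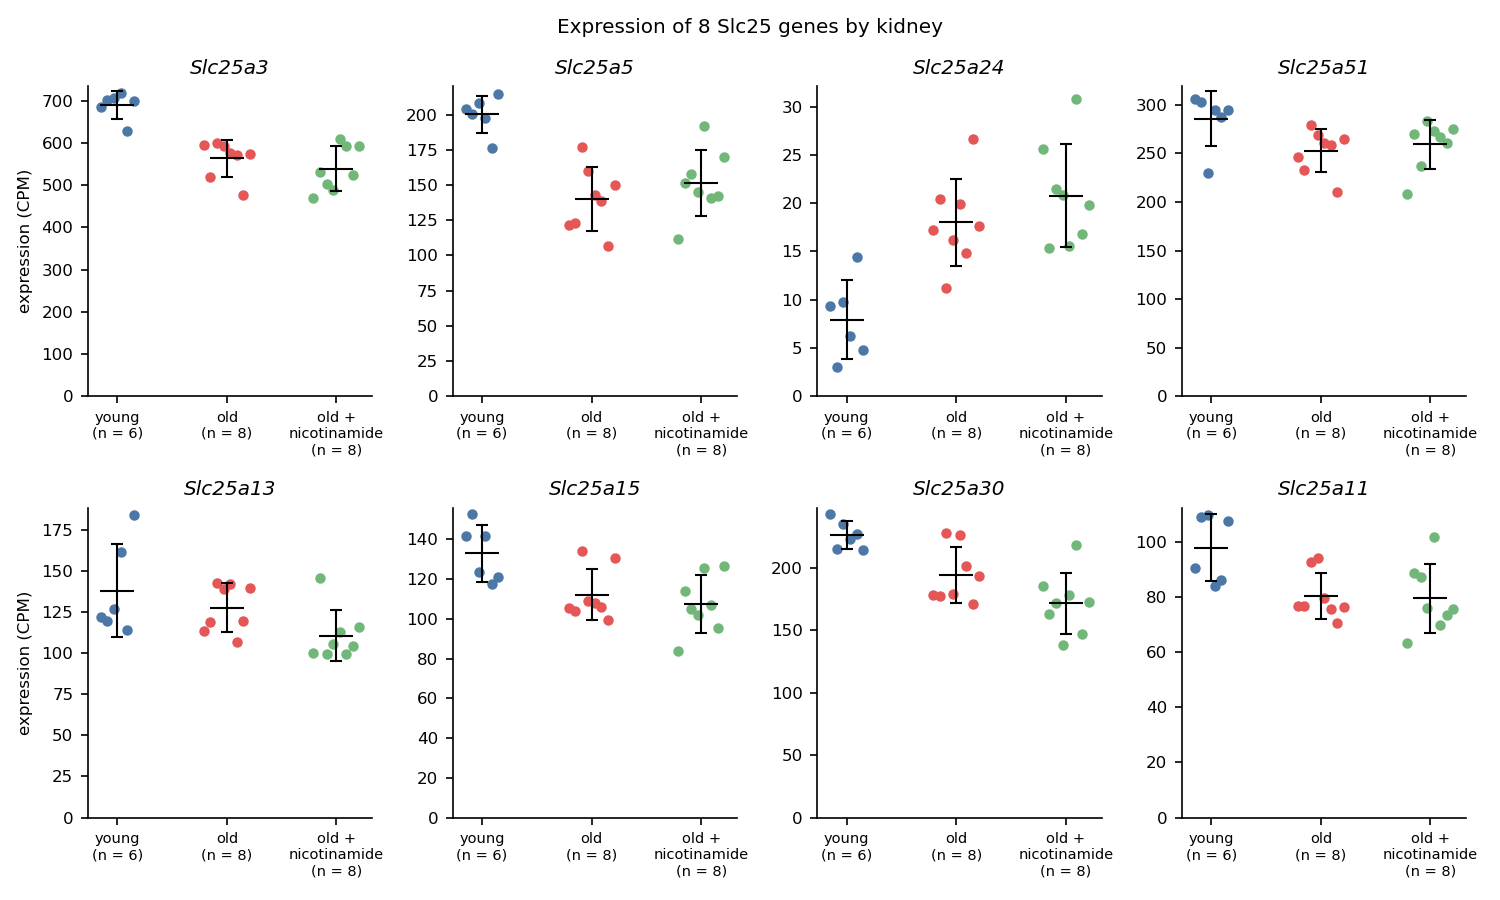
CPM of 8 Slc25 genes in each kidney (points), with the group mean and SD (lines), for young (n = 6), old (n = 8) and nicotinamide-treated old mice (n = 8). Old kidneys lie at 476 to 601 CPM of Slc25a3 against 628 to 718 in young, and at 11.3 to 26.6 CPM of Slc25a24 against 3.05 to 14.4.

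Markers of other cells moved in the same comparison. Of all genes tested, 3.15% were called lower and 3.9% higher, the shares to set beside each marker list. Proximal tubule markers had 2 of 18 lower and 0 higher (Gatm and Slc22a30 fell), with a median log2 fold change of −0.22. Their summed level was 37773 to 42992 CPM in young, 25028 to 36909 in old and 17565 to 40220 with nicotinamide. Kap, an androgen-dependent gene, held 50.4% of that sum, and the 17 others summed to 18211 to 22009 CPM in young and 13331 to 19221 in old. Old replicate 7 and nicotinamide replicate 1 had the lowest sums of their groups and also the lowest CPM of Slc25a3, Slc25a5 and Slc25a51. Their normalization factors (1.06 and 1.15), by which CPM is divided, were the highest of their groups. Other abundant members differed: Slc25a4 was lowest in old replicate 8 and nicotinamide replicate 6. Slc25a30 was lowest in old replicate 7, but in nicotinamide replicate 1 (185 CPM) it lay above the group median (172). A link between these levels and the marker sums was not tested. Macrophage markers had 9 of 11 higher and 0 lower, and their sum was 245 to 285 CPM in young, 432 to 836 in old and 475 to 821 with nicotinamide. None of the 18 and 11 markers was at 0 in a group. Other marker lists moved as well: 2 of 6 distal tubule markers were lower (median −0.47), and 3 of 6 B and plasma cell markers (median 1.504), 2 of 7 T cell markers (median 1.63) and 2 of 5 podocyte markers (median 0.40) were higher. Of 7 thick ascending limb markers 1 was lower (median 0.09), of 9 intercalated cell markers 1 was lower (median −0.21), and of 7 endothelial markers 1 was higher (median 0.11). Of 5 liver cell markers 1 was lower (median 0.70), and of 7 principal cell markers 0 passed (median −0.08). In lists this short, 1 call says little about the cell type. The part of these cells in the falls of Slc25a3 and Slc25a5 and in the rise of Slc25a24 was not tested. Without the 4 kidneys the log2 fold changes were −0.25 for Slc25a3, −0.44 for Slc25a5 and 0.98 for Slc25a24 (adjusted p = 0.0154, 0.000768 and 0.00794).

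The regions before the start sites of these 3 genes are shown because they are the members that passed with age. They are the 250 bases upstream of the RefSeq start, in build GRCm38.p6, read 5′ to 3′ on the strand of the gene. Slc25a3 lies on the minus strand (chr10:91123968-91124217), Slc25a5 on the plus strand (chrX:36795347-36795596) and Slc25a24 on the plus strand (chr3:109122899-109123148). Capitals mark matches to any of 6 motifs searched on both strands.
Slc25a3: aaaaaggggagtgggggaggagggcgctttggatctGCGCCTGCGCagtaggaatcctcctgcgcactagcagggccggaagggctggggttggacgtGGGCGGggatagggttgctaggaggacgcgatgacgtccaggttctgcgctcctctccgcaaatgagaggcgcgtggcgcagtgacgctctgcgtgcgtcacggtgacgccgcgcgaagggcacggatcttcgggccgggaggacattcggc
Slc25a5: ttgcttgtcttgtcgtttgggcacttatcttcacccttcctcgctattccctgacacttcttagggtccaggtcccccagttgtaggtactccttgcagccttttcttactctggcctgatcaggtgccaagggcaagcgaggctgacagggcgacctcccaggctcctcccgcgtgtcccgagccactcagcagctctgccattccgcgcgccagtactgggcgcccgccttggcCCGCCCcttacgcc
Slc25a24: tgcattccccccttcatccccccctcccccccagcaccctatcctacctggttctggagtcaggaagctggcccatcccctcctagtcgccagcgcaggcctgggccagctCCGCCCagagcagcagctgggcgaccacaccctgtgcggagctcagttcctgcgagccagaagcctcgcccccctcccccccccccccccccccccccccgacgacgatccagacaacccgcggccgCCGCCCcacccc
The capitals are GGGCGG (Sp1) on either strand, found 1 time each at Slc25a3 and Slc25a5 and 2 times at Slc25a24, and 1 match at Slc25a3 to the NRF1 motif, which is GCGC, any pair of bases and GCGC again. These matches do not overlap. No match in these windows was found for CCAAT (NF-Y), TCAAGGTCA (the oestrogen-related receptors, ERR), CCGGAAGT (ETS factors) or TGANTCA (AP-1). Of all 32851 RefSeq promoter windows of this length, 32.7% hold GGGCGG and 4.98% the NRF1 motif. Of the 46 windows of the 36 members in that table, 69.6% hold GGGCGG and 4.35% the NRF1 motif. CCAAT was in 33.8% of all windows and 45.7% of the members' windows, TCAAGGTCA in 0.387% and 0%, CCGGAAGT in 2.88% and 2.17%, and TGANTCA in 6.75% and 4.35%. A match describes letters only.

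Counted by direction alone, of the 40 members 26 had a log2 fold change below 0 in old against young (65%; 48.1% of all genes tested) and 14 above 0 (51.9% of all genes), and the median was −0.14 against 0.01 over all genes. At an unadjusted p below 0.05, 10 were lower (9.79% of all genes) and 1 higher (10.9% of all genes), together 27.5% of members against 20.7% of all genes. Abundant members were more often below 0, as a description with no test. The share over all genes of like abundance is not given here, so the lean is not shown to be particular to carriers. Of the 10 with the highest CPM, 9 were below 0 (median −0.22), and of the other 30, 17 were (median −0.02). In 10 members all 8 old kidneys lay below the young median (9.41% of all genes tested). In 3 members (Slc25a14, Slc25a24 and Slc25a46) all 8 lay above it (9.3% of all genes). Of these only Slc25a24 passed. Slc25a14, with a wide young range of 2.55 to 11.3 CPM, was at −0.03 ± 0.29 (adjusted p = 0.974). Slc25a46 was at 0.26 ± 0.13 (adjusted p = 0.260).

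The other ADP/ATP carrier measured was Slc25a4. Slc25a4, ADP/ATP carrier 1, which is best known from heart and muscle, stood at 228 ± 16.7 CPM in young, 203 ± 24.6 in old and 203 ± 37.3 with nicotinamide (mean ± SD). Its log2 fold change with age, −0.17 ± 0.10, did not pass (adjusted p = 0.334). The ratio of Slc25a5 to Slc25a4 counts within a library is free of the library size. Its log2 value was −0.19 ± 0.09 in young and −0.54 ± 0.23 in old (mean ± SD), lower in 7 of 8 old kidneys than the young mean. The difference of −0.36 passed (exact permutation test with both tails, p = 0.00466, adjusted p = 0.0350 over 14 ratio tests). It was lost without the 4 kidneys and without any 1 of 12 libraries (young replicates 1 to 6 or old replicates 1, 2, 4, 5, 6 or 7), with a highest adjusted p of 0.0870. The processed pseudogene Slc25a5-ps had 39 counts in all libraries together, 13 at most in 1 library, so few reads were assigned to it.

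The ratio of Slc25a24 to Slc25a25 was the other of 7 pairs to pass. It rose from a log2 value of −2.17 ± 1.15 to −0.56 ± 0.52 (mean ± SD), higher in 8 of 8 old kidneys than the young mean. The difference was 1.61 (exact permutation p = 0.00499, adjusted p = 0.0350) and the call was lost without the 4 kidneys and without any 1 of 11 libraries (young replicates 1, 2, 3, 4 or 6, or old replicates 1, 2, 4, 5, 6 or 7). Its highest adjusted p was 0.0870 as well. The other 5 pairs did not pass with age (adjusted p = 0.253 to 0.864). They were citrin to aralar (Slc25a13:Slc25a12), both mitoferrins (Slc25a37:Slc25a28), both glutathione carriers (Slc25a39:Slc25a40), both pyrimidine nucleotide carriers (Slc25a33:Slc25a36) and the dicarboxylate to the oxoglutarate carrier (Slc25a10:Slc25a11). Between nicotinamide and old kidneys none of the 7 ratios passed (exact permutation adjusted p = 0.253 to 0.779), with differences from −0.26 to 0.51.

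**Figure D3:**
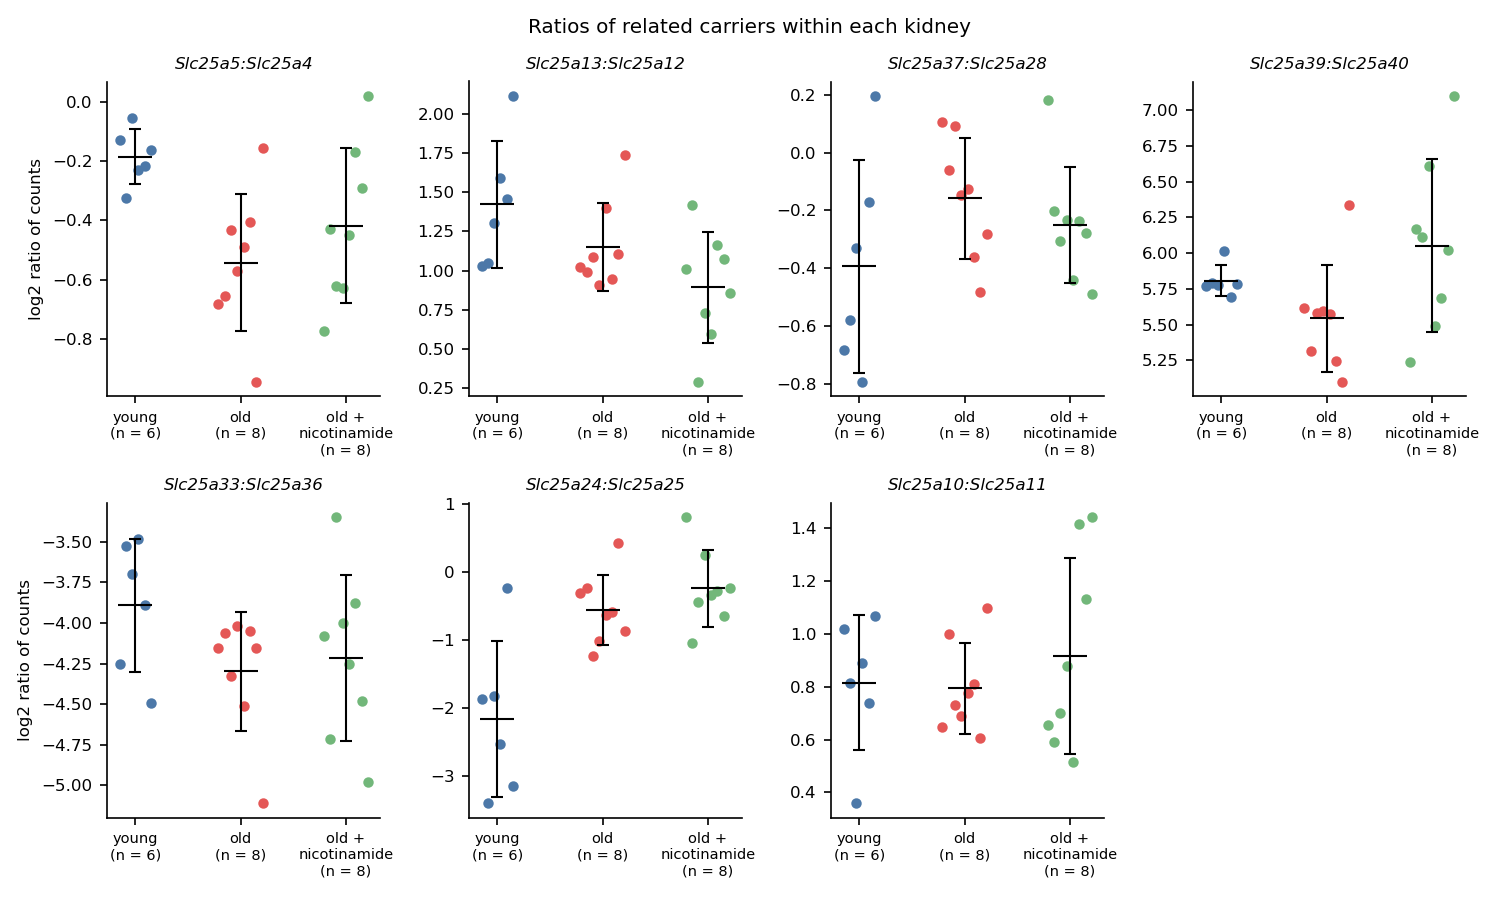
Log2 ratio of the counts of 2 related carriers within each kidney (points), with the group mean and SD (lines), for 7 pairs in young (n = 6), old (n = 8) and nicotinamide-treated old mice (n = 8). The Slc25a5:Slc25a4 ratio lies lower in old kidneys (mean −0.54) than in young (−0.19), and Slc25a24:Slc25a25 higher (−0.56 against −2.17).

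Carriers of carboxylates link the citric acid cycle to the cytosol. All 4 tested had a log2 fold change below 0 with age and none passed. Slc25a10, the dicarboxylate carrier, had 174 ± 33.0 CPM in young and 140.0 ± 19.1 in old kidneys (−0.31 ± 0.13, adjusted p = 0.158), and it passed only with no filter on low counts (adjusted p = 0.0367). Slc25a11, which exchanges oxoglutarate for malate, had 97.9 ± 12.2 and 80.3 ± 8.43 CPM (−0.28 ± 0.10, adjusted p = 0.0738). It passed in 5 of 31 alternatives, which were the fit of the 2 groups alone and the fits without old replicate 3, old replicate 4, nicotinamide replicate 1 or nicotinamide replicate 5. Its gene overlaps Rnf167 on the opposite strand, by the spans of whole genes with introns included. Ambiguous reads were 0.512% to 0.569% of the total. The strand setting of the counting is not given, so how reads from such an overlap were counted is not known. The same limit holds for other members with a gene on the opposite strand, among those described here Slc25a10 (Gm11788), Slc25a12 (Gm13641), Slc25a23 (Crb3), Slc25a25 (Naif1, so also the Slc25a24:Slc25a25 ratio), Slc25a26 (Lrig1), Slc25a33 (Gm13068), Slc25a36 (Gm16185), Slc25a37 (Gm27222), Slc25a46 (B930094E09Rik) and Slc25a53 (Zcchc18). Slc25a1, which exports citrate for fatty acid synthesis, had 72.5 ± 12.1 and 61.9 ± 4.77 CPM (−0.22 ± 0.10, adjusted p = 0.184).

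Amino acid carriers had 0 of 7 tested members past with age. Slc25a13, citrin, which passes aspartate out of the matrix for glutamate, had 138 ± 28.3 CPM in young and 128 ± 14.7 in old kidneys (−0.11 ± 0.10, adjusted p = 0.620). Its relative Slc25a12, aralar, had 50.96 ± 7.62 and 57.9 ± 9.54 CPM (0.18 ± 0.13, adjusted p = 0.452). Slc25a15 exchanges ornithine for citrulline, and its level was 133 ± 14.2 CPM in young and 112 ± 12.9 in old (−0.25 ± 0.09, adjusted p = 0.0989). It passed without old replicate 3 (adjusted p = 0.0410).

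Slc25a20 brings acylcarnitines in for fatty acid oxidation. It was at 29.8 ± 2.62 CPM in young, 30.3 ± 3.91 in old and 34.7 ± 5.30 with nicotinamide. The difference with age was 0.02 ± 0.12, with a 95% interval of −0.22 to 0.26. Its partner enzyme in the matrix, Cpt2, fell from 81.1 to 62.3 CPM with age (−0.38 ± 0.11, adjusted p = 0.0239). Among related enzymes of the same list, Crot fell (−0.43 ± 0.12, adjusted p = 0.0322). Cpt1a (0.005 ± 0.08, adjusted p = 0.983) and Crat (−0.15 ± 0.12, adjusted p = 0.525) did not pass.

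Cofactor carriers had 0 of 9 past with age, 6 of them below 0. Slc25a51, the NAD carrier, had 229.5 to 306 CPM in young kidneys (median 295), 210.2 to 279 in old (median 259.8) and 208 to 284 with nicotinamide (median 269). All 8 old kidneys lay below the young median, but young replicate 3 (229.5 CPM) was under most old kidneys. The difference was −0.18 ± 0.08 (adjusted p = 0.203). Slc25a17, which carries CoA, FAD and NAD into peroxisomes, had 53.7 ± 5.80 CPM in young and 57.9 ± 5.29 in old (0.11 ± 0.10, adjusted p = 0.620). Slc25a39, the glutathione carrier, was at 655 ± 43.5 CPM in young and 564 ± 49.7 in old (−0.22 ± 0.08, adjusted p = 0.118), with all 8 old kidneys below the young median. It passed in the fit of the 2 groups alone and without nicotinamide replicate 1 (lowest adjusted p = 0.0352). Slc25a26, which supplies the matrix with the methyl donor S-adenosylmethionine, had 10.3 ± 2.17 and 10.8 ± 2.47 CPM (0.06 ± 0.20, adjusted p = 0.904).

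Slc25a36, a carrier of pyrimidine nucleotides, had 94.0 ± 11.02 CPM in young and 102 ± 10.8 in old kidneys (0.12 ± 0.10, adjusted p = 0.518). The mitoferrins import iron for heme and iron-sulfur clusters. Slc25a37 had 32.5 ± 5.81 and 34.7 ± 3.42 CPM (0.10 ± 0.12, adjusted p = 0.700) and Slc25a28 42.4 ± 4.999 and 38.8 ± 4.65 CPM (−0.13 ± 0.11, adjusted p = 0.537). The uncoupling protein-like Slc25a30 was at 226 ± 11.3 CPM in young and 194 ± 22.4 in old kidneys (−0.22 ± 0.09, adjusted p = 0.125). Nothing passed among the 6 tested members to which no substrate is assigned here, which ranged from −0.23 (Slc25a45) to 0.34 (Slc25a53).

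**Figure D4:**
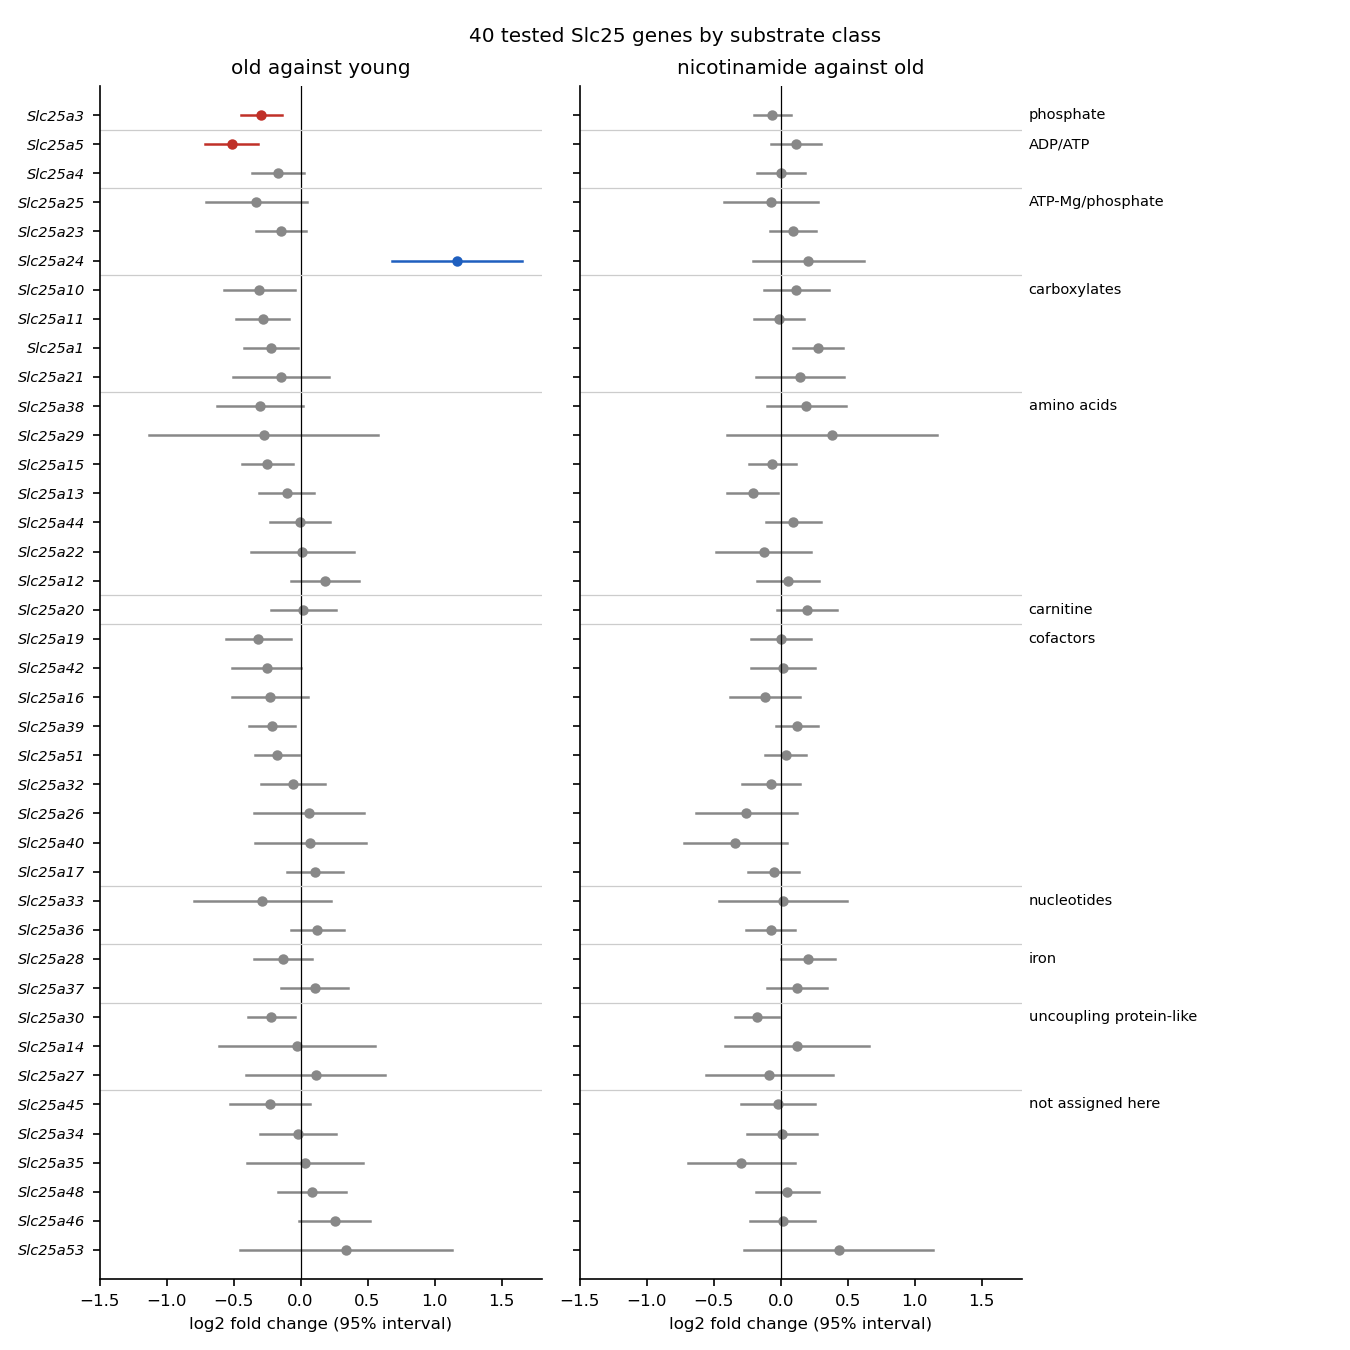
Log2 fold change (points) with 95% interval (lines) of the 40 tested Slc25 genes, by substrate class, for old against young and nicotinamide against old; red marks a fall and blue a rise past an adjusted p of 0.05, grey neither. With age Slc25a3 (−0.29), Slc25a5 (−0.52) and Slc25a24 (1.17) passed, and with nicotinamide no member did.

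Nicotinamide against old kidneys asks what differs with the supplement at the older age. No carrier passed in edgeR (0 of 40), against 4 of 14683 genes in all (0.0272%), 0.0136% in each direction. At an unadjusted p below 0.05 in edgeR there were 3 members (7.5%, against 6.18% of all genes), 1 higher (2.94% of all genes) and 2 lower (3.24% of all genes). DESeq2 and limma-voom also called 0. They had 4 and 6 members at an unadjusted p below 0.05, but the share of all genes by those tools is not given here for comparison. The members' log2 fold change was above 0 in 24 (51.3% of all genes) and below 0 in 16 (48.7% of all genes), with a median of 0.01, as over all genes. For 32 of the 40 the whole 95% interval lay within 0.5 of 0 on the log2 scale, and for 38 within 1.

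The NAD carrier Slc25a51 differed by 0.04 ± 0.08 with nicotinamide (95% interval −0.12 to 0.19, adjusted p = 0.973), and peroxisomal Slc25a17 by −0.05 ± 0.10 (−0.24 to 0.14). The S-adenosylmethionine carrier Slc25a26 was at 8.99 ± 2.16 CPM with nicotinamide (−0.26 ± 0.19, adjusted p = 0.893). The citrate carrier Slc25a1 had the smallest p of the family. It was at 56.5 to 70.6 CPM in old (median 61.2) and 57.8 to 82.2 with nicotinamide (median 79.8), above the old median in 7 of 8 kidneys (0.27 ± 0.09, adjusted p = 0.537). Next came citrin, Slc25a13, at 107 to 143 CPM in old (median 129) and 99.4 to 146 with nicotinamide (median 105), below the old median in 7 of 8 kidneys (−0.21 ± 0.09, adjusted p = 0.755). Slc25a30 was at 171 to 228 CPM in old (median 186) and 138 to 218 with nicotinamide (median 172), also below in 7 of 8 (−0.18 ± 0.08, adjusted p = 0.755). None of these 3 is a call.

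The 3 genes called with age were also compared directly. Slc25a3 differed from old by −0.06 ± 0.07 (95% interval −0.20 to 0.08), Slc25a5 by 0.11 ± 0.09 (−0.07 to 0.30) and Slc25a24 by 0.20 ± 0.20 (−0.21 to 0.62). None passed (adjusted p = 0.937, 0.906 and 0.929).

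Nicotinamide-treated old against young kidneys was a secondary comparison that shares its young libraries with the first and its nicotinamide libraries with the second. In it 7 of 40 members passed (17.5%, against 8.7% of all genes), 1 higher (4.73% of all genes) and 6 lower (3.96% of all genes). By direction alone 24 were below 0 (47.8% of all genes) and 16 above (52.2%). At an unadjusted p below 0.05, 9 were lower (10.2% of all genes) and 2 higher (11.7%), together 27.5% against 21.9%. Slc25a24 rose (1.37 ± 0.24, adjusted p = 0.000299). Slc25a3 fell (−0.36 ± 0.07, adjusted p = 0.00165) and so did Slc25a5 (−0.40 ± 0.10, adjusted p = 0.00641).

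Slc25a30 fell too, from 214 to 243 CPM in young (median 225) to 138 to 218 CPM with nicotinamide (median 172). All 8 treated kidneys lay below the young median (−0.40 ± 0.09, adjusted p = 0.00242). Falls of the ornithine carrier Slc25a15 (−0.31 ± 0.09, adjusted p = 0.0271), citrin Slc25a13 (−0.31 ± 0.10, adjusted p = 0.0442) and the oxoglutarate carrier Slc25a11 (−0.30 ± 0.10, adjusted p = 0.0496) did not hold throughout. Slc25a15 lost its call in 6 of 31 alternatives (adjusted p up to 0.108), Slc25a13 in 12 (up to 0.362) and Slc25a11 in 20 (up to 0.289). Without the 4 kidneys only Slc25a3, Slc25a5 and Slc25a30 of the 6 remained lower. Leaving out nicotinamide replicate 1 or nicotinamide replicate 7 alone also gave 3 lower members. Slc25a11, Slc25a13, Slc25a15 and Slc25a30 had not passed in old against young, and their direct comparison of nicotinamide with old kidneys did not pass either (adjusted p = 0.994, 0.755, 0.948 and 0.755).

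Proteins of the family under other symbols, and other transporters of mitochondria, were set beside the members. Of 29 tested genes in that list, with a median of −0.11, 0 rose with age (3.9% of all genes did) and 4 fell (3.15% of all genes did). They were Letm1 (−0.36 ± 0.10) and Ghitm (−0.32 ± 0.08), both of ion exchange across the inner membrane, Sfxn1 (−0.31 ± 0.08), a serine carrier, and Mcur1 (−0.24 ± 0.08), a partner of the calcium uniporter. Their adjusted p were 0.0164, 0.0105, 0.0203 and 0.0466. With nicotinamide 0 of 29 passed. The pyruvate carrier subunits Mpc1 and Mpc2 did not pass with age (−0.08 ± 0.16 and −0.16 ± 0.10), nor did the carrier homologues Mtch1 (−0.11 ± 0.08) and Mtch2 (−0.19 ± 0.09) of the outer membrane. Ucp3, the uncoupling protein of muscle, had counts in 0 of 6 young, 1 of 8 old and 2 of 8 nicotinamide-treated kidneys. Ucp2, an uncoupling protein also made by immune cells, had 33.0 ± 7.92 CPM in young, 40.4 ± 7.66 in old and 49.8 ± 8.57 with nicotinamide. It rose in nicotinamide-treated old against young kidneys (0.61 ± 0.14, adjusted p = 0.00293) and did not pass in old against young (0.31 ± 0.14, adjusted p = 0.180). In nicotinamide-treated old against young kidneys 1 of the 29 was higher (4.73% of all genes) and 4 were lower (3.96% of all genes), with a median of −0.07.

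A list of enzymes from pathways linked to the carriers, not all of them users of carried substrates, was also counted. Of its 38 tested genes 13 were lower with age (3.15% of all genes were) and 0 higher (3.9% of all genes). Their median was −0.23 against 0.01 over all genes. Pcx, which makes oxaloacetate from pyruvate, fell (−0.43 ± 0.10, adjusted p = 0.00437), as did Gpd2 of the glycerol phosphate shuttle (−0.42 ± 0.10, adjusted p = 0.00746). Of the 4 malate dehydrogenases and aspartate transaminases of the malate-aspartate shuttle, Mdh1 (−0.36 ± 0.10, adjusted p = 0.0221) and Got2 (−0.29 ± 0.09, adjusted p = 0.0406) fell. Mdh2 (−0.21 ± 0.07, adjusted p = 0.0695) and Got1 (−0.21 ± 0.09, adjusted p = 0.143) did not pass. The succinate dehydrogenase subunit Sdha was lower too (−0.26 ± 0.07, adjusted p = 0.0222). Nadk2, which makes NADP from NAD in the matrix, fell from 19.9 to 12.99 CPM (−0.60 ± 0.17, adjusted p = 0.0212). With nicotinamide against old 0 of the 38 passed (median 0.04).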

How the data were processed

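The authors' deposited table holds raw read counts per mouse Ensembl gene for 22 libraries made with a QuantSeq 3′ kit, per the labels. The submitters' processing notes name STAR, HTSeq and GRCh38, a human build, while the identifiers are of mouse. Not given in the sources used here: versions, strand setting and annotation. Symbols came from GENCODE M21 (55141 identifiers matched). The 5 HTSeq summary entries stayed out of library sizes; reads in no gene were 19.1% to 24.7% and ambiguous reads 0.512% to 0.569% of the total.

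A quasi-likelihood model over the 22 libraries was fitted with edgeR 4.0.16 (R 4.3.3; filterByExpr, minimum count 10, minimum total count 15; TMM; robust; no covariates), which tested 14683 genes with 99.75% of the counts. The threshold was 0.05 on p adjusted by Benjamini-Hochberg over those genes. SE was taken as |log2 fold change| divided by the root of F, and 95% intervals use the fit's degrees of freedom. Ratios added 0.5 to each count; 7 of 9 listed pairs had both genes tested. DESeq2 1.42.0, limma-voom (limma 3.58.1), RLE scaling, other filters, no robust dispersions, only the groups compared, a replicate block, and fits without the 4 kidneys or each of the 22 libraries in turn were alternatives. The fit was also run on simulated counts with known changes. That run held no change as small as that of Slc25a3 and no difference in cell content between pieces, so it does not test the calls made here. Members, gene lists and comparisons were chosen with earlier results of these data known. Members named are those that passed in any comparison, the 10 highest in CPM, the 3 with the lowest p in nicotinamide against old, and those that stand for a substrate class; of other lists, up to 8 genes that passed, some of which are not reported here. Slc25a14, Slc25a23, Slc25a25, Slc25a45, Slc25a46, Slc25a53, Cpt1a, Cpt2, Crat, Crot, Got1, Got2 and Mdh2 were named after their values were seen.

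The 71 pairs of libraries within a group had chi-square values of 5.38 to 38.4 for each degree of freedom, so none was a copy.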

Additional observations from a re-analysis of the deposited data

Results flagged for a closer look

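In 9 of 120 groups (40 members in 3 groups each), 1 kidney lay far from the others of its group by Dixon's test; chance flags about 1 in 20 groups. Slc25a3 was 628 CPM in young replicate 5, against 685 to 718 in the other young kidneys, and Slc25a51 was 229.5 CPM in young replicate 3, against 287 to 306. Both kidneys were low within the young group. Slc25a13 was 146 CPM in nicotinamide replicate 2, against 99.4 to 116.

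The rest concerned low or middling members. Slc25a14 was 9.80 CPM in old replicate 2 (others 4.56 to 6.38), Slc25a26 14.3 CPM in young replicate 1 (7.99 to 10.2) and Slc25a32 46.8 CPM in young replicate 6 (30.0 to 36.0). Slc25a44 was 58.4 CPM in young replicate 2 (39.5 to 45.7). Old replicate 8 was apart in 2 genes, with 7.44 CPM of Slc25a40 (11.6 to 15.2) and 11.1 CPM of Slc25a53 (1.64 to 4.78), a gene that overlaps Zcchc18 on the opposite strand.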

How the results depend on the processing

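The age-related calls of Slc25a3, Slc25a5 and Slc25a24 held in all 31 alternatives, with log2 fold changes of −0.33 to −0.25, −0.58 to −0.44 and 0.98 to 1.41 and highest adjusted p of 0.0345, 0.00328 and 0.00998. No called value changed sign; 31 sign changes were among values past no threshold. Members lower with age numbered 4 with only the 2 groups compared (Slc25a11 and Slc25a39 added) and 2 to 4 with 1 library left out, 4 without old replicate 3 (Slc25a11, Slc25a15) or nicotinamide replicate 1 (Slc25a11, Slc25a39). Without the 4 kidneys, nicotinamide against young gave 801 genes called in place of 1277 and 3 members lower in place of 6, and 0 ratios passed with age in place of 2. With nicotinamide against old, the genes called numbered 9 by DESeq2, 7 with no filter and 2 without robust dispersions, in place of 4; members called stayed at 0. With 1 library left out, genes called ranged from 668 to 1305 with age (668 without young replicate 4, 670 without young replicate 2), 1 to 9 for nicotinamide against old (9 without nicotinamide replicate 1, 1 without old replicate 1, old replicate 6 or nicotinamide replicate 6) and 835 to 1438 for nicotinamide against young (835 without young replicate 2), members lower in the last from 3 to 7, and ratios passing with age from 0 to 3 (3 without old replicate 8). Equal replicate numbers showed no pairing (20 pairs across groups, correlations of −0.082 to 0.059, 0 above 0.1), and a block for the replicate number gave 904, 3 and 1081 genes called and 2, 0 and 4 members lower in the 3 comparisons; among members it ended only the calls of Slc25a11 and Slc25a13 in nicotinamide against young. The cause of these changes was not tested. Depth limits the low members, such as Slc25a24 with 15 to 86 counts per young library.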

Other observations

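Genes that bring carriers into the inner membrane or regulate mitochondrial genes were also counted. Of all genes tested, 3.15% fell with age and 3.9% rose past the threshold. Of 15 tested genes of the carrier import route, 2 fell with age and 0 rose (median −0.18): the small chaperone Timm8b (−0.37 ± 0.11, adjusted p = 0.0287) and Tomm7 of the outer membrane pore (−0.27 ± 0.08, adjusted p = 0.0276). Of 17 regulators, 2 fell and 0 rose (median −0.11): Esrra, the nuclear receptor ERR alpha (−0.42 ± 0.13, adjusted p = 0.0347), and Hnf4a of proximal tubule identity (−0.32 ± 0.08, adjusted p = 0.0120). With nicotinamide against old 0 of either list passed.

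Ucp1, the uncoupling protein of brown fat, had counts in 2 of 6 young, 5 of 8 old and 7 of 8 nicotinamide-treated kidneys, up to 358 in 1 library. It did not pass in any comparison. The 5 brown fat markers, Ucp1 among them, summed to 15.5 to 38.2 CPM in young, 14.2 to 50.9 in old and 15.02 to 109 with nicotinamide. The 8 adipocyte markers summed to 507 to 1170 CPM in young, 475 to 882 in old and 738 to 1427 with nicotinamide. Of the 7 tested, 0 passed in nicotinamide against old (median log2 fold change 2.08). The part of fat in the kidney pieces in the Ucp1 counts was not tested.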
